A study of Mus musculus with 2 samples.

Results

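The cytosolic ribosomal protein genes were followed in leukocytes of B16F10 tumours, a mouse melanoma grown under the skin. Members were taken by symbol: Rpl or Rps followed by a digit, Rplp or Rpsa, without the Rps6k kinases and without symbols that carry -ps. The rule found 86 of the 32285 genes of the series. They comprise 43 genes of the large subunit, 3 of the P-stalk, 31 of the small subunit and 9 paralogs or related symbols. Among these 9 is Rps19bp1, which encodes a protein that binds RPS19 and is not itself a ribosomal protein. Fau, which encodes the ribosomal protein RPS30, falls outside the symbol rule and was read beside the members.

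Cells positive for CD45, the surface protein common to leukocytes, were sorted by FACS from tumours of wild-type (WT) mice and sequenced as 10x Genomics single-cell libraries. The IL4 library is labelled as coming from mice that received bone-marrow-derived macrophages (BMDMs) treated with IL-4, and the control library from mice that received untreated BMDMs. Each group is 1 library, so no difference between the groups has a replicate check and no test or p-value is given. The treatment protocol field of the control library also names IL-4-treated BMDMs, so the labels do not fully match each other. Nothing in the labels gives the number, age or sex of the animals per library, and transferred and host cells cannot be told apart in these data.

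The IL4 library held 13873 barcodes with 133151428 UMIs (median 8213 per barcode), and the control library 8994 barcodes with 95499107 UMIs (median 9156.5). After filters on UMIs, genes and mitochondrial share, 13762 IL4 and 8937 control barcodes were kept. Both libraries held barcodes with Xist and barcodes with Y-linked transcripts. Xist without Y-linked transcripts was read in 10058 IL4 and 4296 control barcodes, and Y-linked transcripts without Xist in 1227 IL4 and 2497 control barcodes. The libraries thus differ in the sexes of the cells they hold, and values within each of these sets are given where they bear on a result. The libraries shared 23 barcode sequences.

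A ribosome joins a small subunit, which reads the mRNA, to a large subunit, which forms the peptide bond. Most ribosomal proteins are needed in equal number, and their mRNAs typically start with a run of pyrimidines at the 5′ end, the TOP motif, through which growth signals by mTORC1 and LARP1 adjust translation of the whole set. The mRNAs are abundant in dividing and activated lymphocytes and scarce in mature neutrophils. A few ribosomal proteins have paralogs that can take their place in the ribosome and are used unequally between tissues.

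The start regions of 6 members are shown because the largest departures from the set concern them (Rps27l, Rpl31), because one is the parent and one a retrotransposed copy of the same family (Rps27, Rps27rt), or because the member lay farthest below the set median among those on 1 side of it in all 8 types (Rpl4) or belongs to the P-stalk (Rplp2). Each window runs from 12 bases before to 18 bases from the start site annotated by RefSeq, 5′ to 3′ on the gene's strand, in mm10. Capitals mark the longest run of a C followed by at least 5 letters that are each C or T, and the first of them where runs are equally long, as in Rpl31. In Rps27l, Rpl31 and Rpl4 the marked run begins at the window edge and ends before the annotated start. A second annotated start of Rps27l (window chr9:66946401-66946430) holds no such run and is not shown.
Rps27l (chr9:66946074-66946103, plus strand): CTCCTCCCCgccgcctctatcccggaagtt
Rps27 (chr3:90213631-90213660, minus strand): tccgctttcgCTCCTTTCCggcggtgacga
Rps27rt (chr9:114982722-114982751, minus strand): acttatcccttgCTTTCCggcggtgacgac
Rpl31 (chr1:39367839-39367868, plus strand): CCTCCTCgcctccccgtgacccggaagttg
Rpl4 (chr9:64173375-64173404, plus strand): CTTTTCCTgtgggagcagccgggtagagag
Rplp2 (chr7:141447639-141447668, plus strand): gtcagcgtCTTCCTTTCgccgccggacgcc
Of the 66 members with a RefSeq window, 60 (90.9%) held such a run on the sense strand within 50 bases of an annotated start, against 61.8% of 27025 genes searched the same way. On the other strand the share was 43.9% of members against 64.1% of all genes. A run of these letters is a description of the sequence and not evidence of use as a TOP start.

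Many members have near-identical copies in the genome, which limits what a UMI count can assign. In the last 400 bases of the first protein-coding transcript, 66 of the 86 members share at least 1 window of 60 bases with another gene's transcript in GENCODE M21. For Rpl10, Rpl9 and Rpl36a every window is shared, for Rps27 98.6% and for Rps27rt 90.8%, the last pair with each other. Counts of those genes are uncertain. The limit is wider than these genes, since 43 of the 86 members share at least 50% of their windows. Members named below that do so include Rpl13 and Rpl27 (87.7% each), Rpl7 (80.6%), Rps24 (71.3%), Rpl22l1 (55.4%) and Rplp1 (52.8%). Rps27l shares 23.8% of its windows, and Rps19, Rpl31 and Rpl4 share none.

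Over all kept barcodes, ribosomal protein genes took 15.73% of UMIs in the IL4 library and 15.53% in the control library. Cells were assigned to types by marker genes, none of them a member. The described types, each with at least 50 barcodes in both libraries, were macrophages (3924 IL4 and 2502 control barcodes), monocytes (3106 and 2098), conventional dendritic cells (DC) of type 2 (753 and 558) and type 1 (331 and 229), mature migratory DC (496 and 280), neutrophils (125 and 253), T cells (536 and 295) and NK cells (493 and 205). Summed marker levels followed the names in most types, but the types were themselves assigned by marker genes. High sums of a type's own list are therefore partly given by the assignment and are no independent check of the names. Macrophage markers reached 8074 CPM (UMIs scaled to a common total per type and library) in IL4 and 8134 CPM in control macrophages, mature DC markers 6550 and 6578 CPM in mature DC, and T cell markers 3174 and 3300 CPM in T cells. NK cells carried 754 and 828 CPM of the T cell list beside 1943 and 2218 CPM of their own. The monocyte list, several of whose genes other myeloid cells express, summed to more than the own list in type 2 DC (2316 CPM in IL4 and 1881 CPM in control) and exceeded it in IL4 type 1 DC. It also reached 1996 CPM in IL4 and 1524 CPM in control T cells, and the part of free RNA or of doublets in the values was not tested.

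The share of UMIs in ribosomal protein genes differed more between types than between libraries. T and NK cells stood highest among the described types. The share was 20.44% in IL4 and 21.36% in control T cells, and 20.65% in IL4 and 18.77% in control NK cells. Conventional DC followed at 18.74% in IL4 and 18.05% in control for type 2, and at 18.41% and 17.81% for type 1. Mature migratory DC held 15.92% and 15.90%, monocytes 14.62% and 14.43%, and macrophages 13.09% and 13.82%. Neutrophils stood lowest, at 9.31% in IL4 and 8.89% in control. The exact 95% binomial interval of the neutrophil share was 9.24% to 9.39% in IL4 and 8.84% to 8.94% in control. Intervals cover counting error only. B cells, which are not a described type, held 17.21% in IL4 (34 barcodes) and 17.93% in control (69 barcodes).

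**Figure D1:**
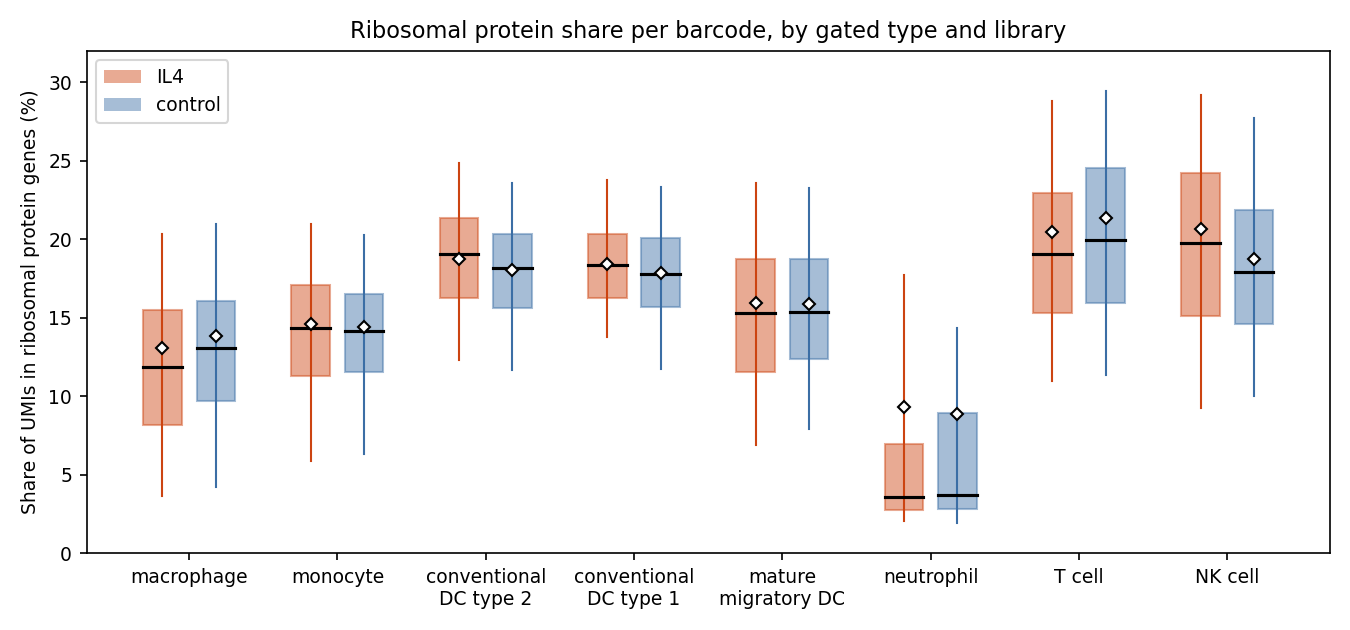
Share of UMIs in ribosomal protein genes (%) per barcode in the 8 described types, with IL4 left of control. Boxes span the quartiles, lines the 5th to the 95th percentile, black bars the median over barcodes and white diamonds the share of summed UMIs. T and NK cells sit highest, and the neutrophil medians of 3.57% in IL4 and 3.68% in control lie far under their diamonds.

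Neutrophil barcodes were unlike the others in their spread. The median barcode held 3.57% in the IL4 and 3.68% in the control library, and 68.0% of IL4 and 64.4% of control neutrophil barcodes were under 5%. The mean per barcode was 5.85% in IL4 and 5.80% in control, under the share of summed UMIs, in which deep barcodes weigh more. Neutrophils had a median of 2563 UMIs in IL4 and 3172 UMIs in control, the fewest of the described types. By contrast, 0.746% of IL4 T cell barcodes and none of the 295 control T cell barcodes were under 5%, which allows a share of up to 1.02% in control T cells.

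Between the libraries, the share in NK cells was 1.89 percentage points higher in IL4 than in control. In barcodes with Xist alone the shares were 21.12% in IL4 and 19.29% in control, and in those with Y-linked transcripts alone 20.73% and 18.84%. Under a stricter marker gate they were 21.24% and 19.99%, a gap of 1.24 points, and with each barcode counted alike the gap was 1.28 points. Depth was alike, with medians of 7691 UMIs in IL4 and 7826 in control NK cells. T cells lay the other way, at -0.924 points. Their shares were 20.42% in IL4 and 20.90% in control with Xist alone, and 20.70% and 22.67% with Y-linked transcripts alone. Under the stricter gate the T cell gap nearly closed, with 21.24% in IL4 and 21.34% in control. Macrophages were at -0.727 points, with 12.84% in IL4 and 13.52% in control for Xist alone, and 13.68% and 14.10% for Y-linked transcripts alone. IL4 macrophages also had fewer UMIs (median 7709.5 in IL4, 8687.5 in control) and a larger share in dissociation-stress genes (2.70% in IL4, 2.39% in control). Genes of that list went both ways: Hspa1a, an inducible heat-shock chaperone, had 892 CPM in IL4 and 1651 CPM in control macrophages, and the early-response gene Ier2 463 and 281 CPM. In NK cells Hspa1a had 688 CPM in IL4 and 1223 CPM in control. The part of these differences in the shares was not tested. In neutrophils the gap was 0.42 points, but 2.74 points with Xist alone (12.45% in IL4 and 9.71% in control, on 36 and 48 barcodes).

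The share moved with depth. Over all kept barcodes the median was 7.0% in IL4 and 9.66% in control at 500 to 2000 UMIs, and 18.57% in IL4 and 17.44% in control at 20000 or more. Among macrophages of 500 to 2000 UMIs it was 8.52% in IL4 and 11.66% in control, and at 2000 to 5000 UMIs 7.86% in IL4 (731 barcodes) and 10.93% in control (382 barcodes). Among macrophages of 5000 to 10000 UMIs it was 11.54% in IL4 and 11.68% in control. At 10000 to 20000 UMIs it was 13.76% in IL4 (1146 barcodes) and 14.35% in control (875 barcodes), and at 20000 or more 15.43% and 15.39%. IL4 macrophages were thus lower in each bin under 20000 UMIs, and the gap was widest in the shallowest.

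**Figure D2:**
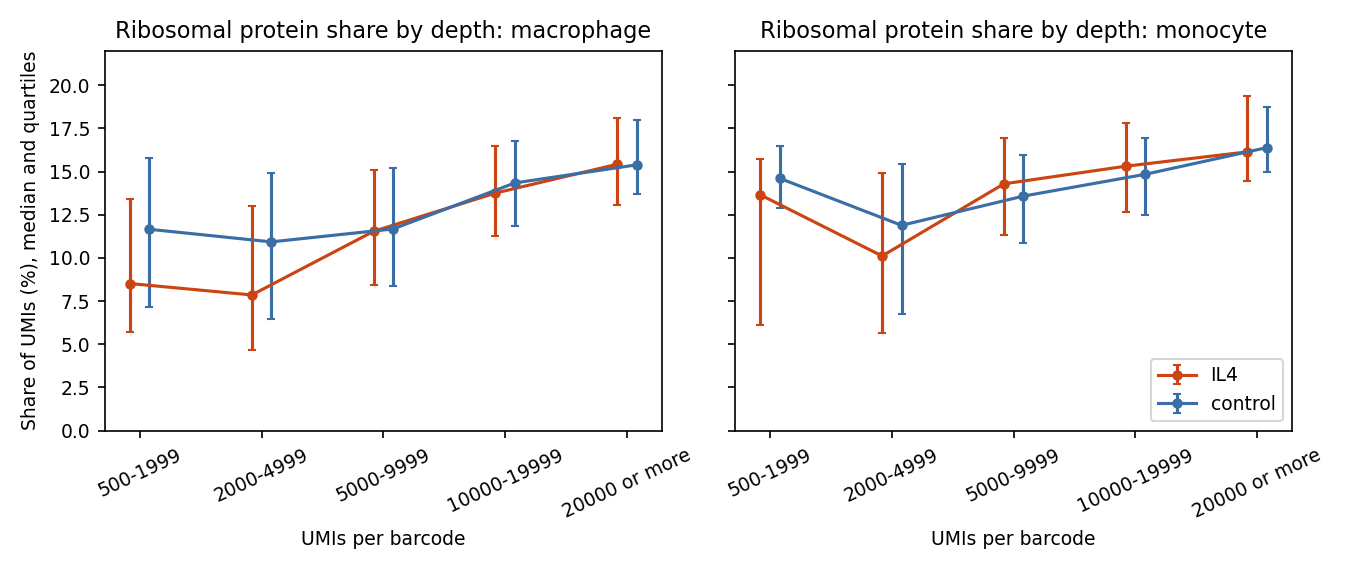
Median share of UMIs in ribosomal protein genes (%), with quartiles as bars, by UMIs per barcode in macrophages and monocytes, IL4 left of control. In macrophages of 2000 to 5000 UMIs the median is 7.86% in IL4 and 10.93% in control, and in the deepest barcodes 15.43% and 15.39%.

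By number of UMIs, not scaled for transcript length, the 5 highest members were Rpl13, Rplp1, Rps24, Rpl23 and Rps16. Rpl13, of the large subunit, had 3614 CPM in IL4 and 3645 CPM in control over all kept barcodes. Rplp1, a P-stalk protein that helps recruit elongation factors to the ribosome, had 3732 and 3436 CPM. The small-subunit genes Rps24 and Rps16 had 3395 and 3274 CPM in IL4, against 3361 and 3242 CPM in control, and Rpl23 of the large subunit 3313 CPM in IL4 and 3317 CPM in control. No member was at 0. The lowest were the tissue-restricted paralogs: Rpl10l, known from the testis, with 2 UMIs over both libraries, Rpl39l, also known from the testis, with 208 UMIs, and Rpl3l, known from striated muscle, with 265 UMIs. Their parents were far higher: Rpl10 with 2947 CPM in IL4 and 2870 CPM in control, Rpl39 with 1807 and 1778 CPM, Rpl3 with 1195 and 1222 CPM. Rps19bp1 had 31.2 CPM in IL4 and 31.4 CPM in control, and the retrocopy Rps27rt 36.3 and 34.7 CPM. The remaining P-stalk genes and the laminin-binding Rpsa were close between the libraries: Rplp0 2375 CPM in IL4 and 2386 in control, Rplp2 2670 and 2546, Rpsa 2322 and 2336.

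**Figure D3:**
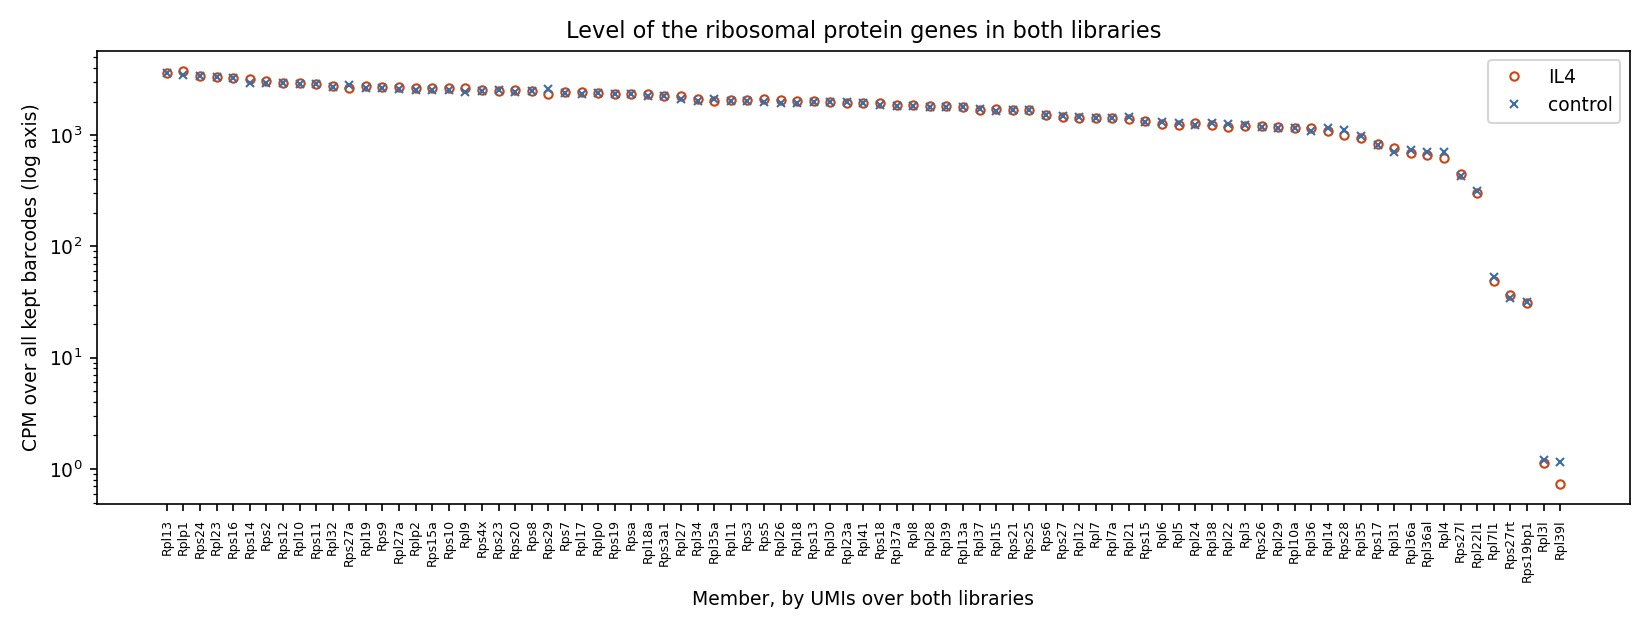
Level of 85 members over all kept barcodes in CPM (log axis), ordered by UMIs over both libraries, IL4 as circles and control as crosses. Rpl10l with 2 UMIs is left out. Circle and cross lie close together for nearly every member, and the level drops at Rps27l, Rpl22l1, Rpl7l1, Rps27rt, Rps19bp1, Rpl3l and Rpl39l.

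Within types the members moved together and by little between the libraries. A member counted as higher or lower where its CPM plus 1 differed 1.5-fold, with at least 50 UMIs over both libraries. Across the 8 types, 1 member in 1 type passed, Rps19bp1 in mature DC, and that gene is not a ribosomal protein. It had 19.2 CPM in IL4 (95% Poisson interval 15.9 to 23.0, 119 UMIs) and 11.6 CPM in control (8.50 to 15.5, 46 UMIs), log2 ratio 0.68. With a pseudocount of 10 CPM, or with each barcode counted alike, no member passed. Under the stricter gate this call was lost, and the 1 that passed was the same gene in NK cells. The shares of all genes that passed were 2.74% higher and 2.53% lower in IL4 macrophages, 2.38% and 1.88% in monocytes, 1.68% and 3.71% in type 2 DC, and 3.8% and 3.99% in type 1 DC. They were 3.6% higher and 3.64% lower in IL4 mature DC, 6.56% and 9.13% in neutrophils, 2.52% and 3.08% in T cells, and 3.31% and 5% in NK cells. All genes needed only 50 UMIs, and most members had far more, so counting error weighs less on members. The comparison therefore cannot show that members differ less between the libraries than other genes.

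The median member ratio showed where the set as a whole stood. On the log2 scale it was 0.15 in NK cells, where 76 of 83 members tested were above 0 and the median of all genes was -0.04. It was -0.08 in macrophages, where 10 of 83 members were above 0, but the median of all genes there was also -0.08. In T cells it was -0.07 with 11 of 83 above 0, beside -0.03 for all genes. The medians were 0.05 in both kinds of conventional DC, with 66 of 83 members above 0 in type 2 and 67 of 83 in type 1, beside -0.07 and -0.01 for all genes. Summed markers of melanoma cells, the tumour line's own cell type, were 176 CPM in IL4 and 4.81 CPM in control type 1 DC, and 42.6 and 4.07 CPM in monocytes, and their part in the values was not tested. Monocytes were at 0.01 (52 of 84), mature DC at -0.01 (38 of 83) and neutrophils at 0.07 (58 of 82). Both subunits gave like medians: in NK cells the large and small subunits had medians of 0.14 and 0.15, and in macrophages -0.09 and -0.08.

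**Figure D4:**
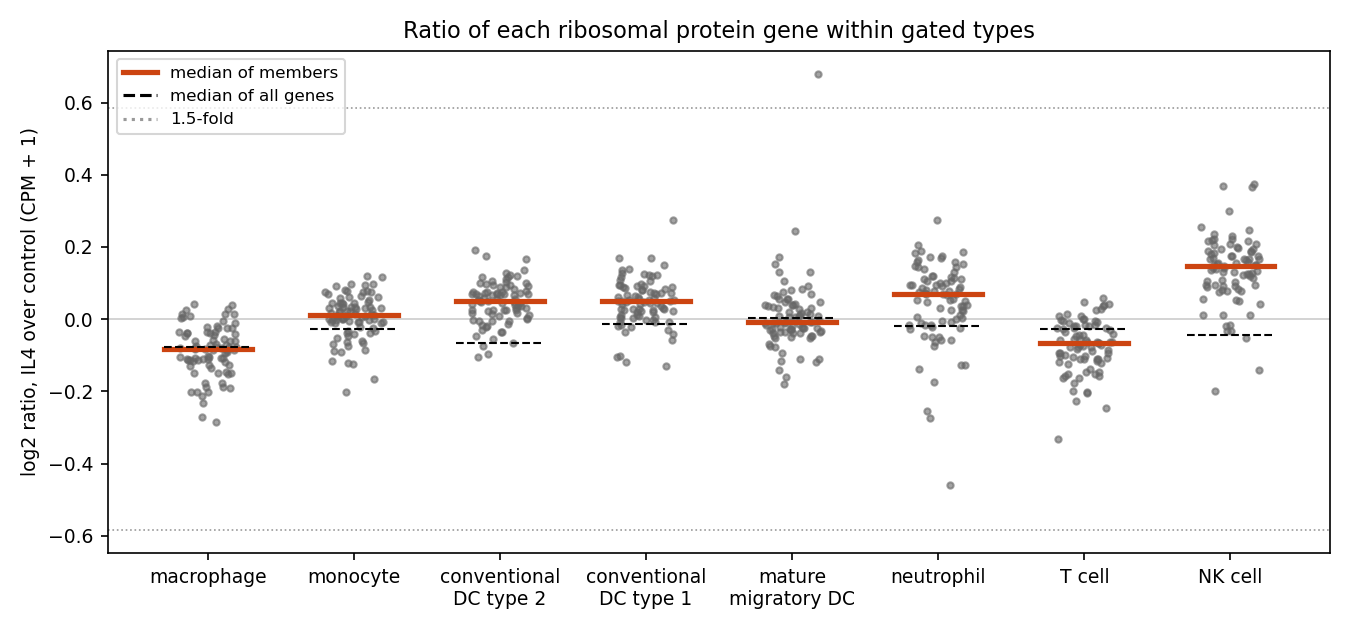
Log2 ratio of each member, IL4 over control (CPM plus 1), in the 8 described types. Points are members with at least 50 UMIs, thick lines their median, dashed lines the median of all genes and dotted lines 1.5-fold. The NK cell members centre on 0.15, the macrophage members on -0.08, and 1 point, Rps19bp1 in mature DC, lies past 1.5-fold.

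No member departed 1.5-fold from the set median between the libraries in a described type. By small deviations, 23 of 82 members (28%) lay on the same side of the set median in all 8 types, 11 above and 12 below. Of 4549 genes tested the same way about the median of all genes, 15% did so. Those genes needed 50 UMIs per type, and most members had far more, so counting error weighs less on members. All types also come from the same pair of libraries. The shares therefore cannot show that members keep their side more than other genes. The lowest of the 23 members was Rpl4, a large-subunit protein that lines the exit tunnel. It had 621 CPM in IL4 and 704 CPM in control over all kept barcodes. Its log2 ratio lay from -0.26 to -0.13 about the set median in the 8 types. In macrophages it had 466 CPM in IL4 (Poisson interval 459 to 473) and 568 CPM in control (559 to 578). Next were the small-subunit genes Rps28, with 993 CPM in IL4 and 1100 CPM in control, and Rps29, with 2343 and 2580 CPM. Rplp1, Rpl9 and Rpl27 stood highest, 0.11, 0.09 and 0.09 above the median over all kept barcodes. Rpl9 shares all its windows with other genes, Rpl27 87.7% and Rplp1 52.8%.

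Between leukocyte types, a few members stood well apart from the rest in both libraries. The measure was a member's share of ribosomal protein UMIs in a type over its share in all kept barcodes. Most members kept nearly the same share: in macrophages 77 of 83 and in monocytes 81 of 84 lay within 0.2 on the log2 scale, but in NK cells 56 of 83 and in mature DC 63 of 83. In the described types there were 6 departures of at least 1.5-fold in the same direction in both libraries, 3 of them in mature DC, 2 in NK cells and 1 in monocytes. All 6 concern paralogs or Rps19bp1, which is not a ribosomal protein. No gene counted to the large subunit, the P-stalk or the small subunit departed there. With at least 200 UMIs per member 3 departures remained. For comparison, UMIs of every gene were taken per ribosomal protein UMI under the same threshold. Then 13.9% of all genes were higher and 29.4% lower in mature DC, 11.9% and 21.4% in NK cells, and 2.46% and 8.36% in monocytes. These shares also carry the difference in ribosomal protein share between types. A member's share within the set does not, so the measures are unlike. In the types without a departing member these shares were 6.24% and 6.23% in macrophages, 2.41% and 14.5% in type 2 DC, 8.46% and 18.5% in type 1 DC, 44.7% and 0.72% in neutrophils, and 13.1% and 23.8% in T cells.

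Rps27l, a paralog of the small-subunit gene Rps27 and a known target of p53, varied most. Mature migratory DC had 1180 CPM in IL4 (Poisson interval 1153 to 1207) and 997 CPM in control (966 to 1028). The other types ranged from 231 CPM in NK cells to 461 CPM in type 1 DC in the IL4 library, and from 193 CPM in NK cells to 450 CPM in macrophages in the control library. As a share of ribosomal protein UMIs it was 0.741% in IL4 and 0.627% in control mature DC, against 0.286% and 0.274% over all kept barcodes. On the log2 scale mature DC lay at 1.37 in IL4 and 1.20 in control relative to all kept barcodes, and NK cells at -1.36 and -1.41. Over barcodes with at least 500 ribosomal protein UMIs, the median share in mature DC was 0.664% in IL4 (quartiles 0.322 to 1.204, 461 barcodes) and 0.563% in control (quartiles 0.209 to 1.035, 264 barcodes). In NK cells the median was 0.071% in IL4 (quartiles 0 to 0.151, 455 barcodes) and 0.072% in control (quartiles 0 to 0.134, 194 barcodes). The lower quartile there was 0, on 1171 Rps27l UMIs in IL4 and 388 in control over all NK cells. Barcodes of 1 library are not replicates, so the ranges describe spread only. Across the alternatives, the mean of both libraries lay between 1.28 and 1.71 in mature DC and between -1.68 and -1.28 in NK cells.

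Within the pair, Rps27l made up 41.2% of Rps27 plus Rps27l UMIs in IL4 mature DC (exact binomial interval 40.5 to 42.0) and 36.5% in control mature DC (35.6 to 37.4). It was 27.7% and 26.2% in macrophages, 20.6% and 19.7% in monocytes, 19.97% and 17.9% in T cells, and 10.8% and 8.44% in NK cells. Mature DC stood highest and NK cells lowest in both libraries, and IL4 lay above control in each of these 5 types. Rps27 itself had 1682 CPM in IL4 and 1736 CPM in control mature DC and 1904 and 2099 CPM in NK cells, and its counts are uncertain because of shared sequence.

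Other members departed as well. Rpl36al, an autosomal paralog of the X-linked Rpl36a in the large subunit, lay at -0.66 in IL4 and -0.72 in control mature DC on the log2 scale, with 424 CPM in IL4 and 435 CPM in control. It made up 39.6% and 38.9% of the Rpl36a plus Rpl36al UMIs there, 36.7% and 36.9% in NK cells, and 55.4% and 55.0% in monocytes, but 78.0% of its own windows and all those of Rpl36a are shared with other genes. Rps19bp1 was lower in NK cells (-0.98 in IL4, -1.04 in control) and in mature DC (-0.72 and -1.47). Rpl3l was higher in monocytes (0.85 and 0.96), on 52 UMIs in IL4 and 45 UMIs in control. Just short of the threshold lay Rps19, a small-subunit protein mutated in Diamond-Blackfan anaemia in humans. In mature DC it had 3564 CPM in IL4 and 3614 CPM in control, which was 0.60 and 0.58 above its share in all kept barcodes, against 2755 and 2977 CPM in T cells, the next highest type. It passed in both libraries with Xist alone (0.62 in IL4 and 0.62 in control), with Y-linked transcripts alone (0.61 and 0.62) and with each barcode counted alike (0.66 and 0.63). Under the stricter gate it had 0.63 in IL4 but 0.57 in control, short of the threshold of 0.58496. Control also stayed short with at least 2000 UMIs (0.5839) and with a mitochondrial limit of 5% (0.5849). None of its windows is shared with another gene.

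Rpl22l1, a paralog of Rpl22 that is known to be held down by Rpl22 in the mouse, was highest in T and NK cells among the described types. It had 540 CPM in IL4 and 619 CPM in control T cells, 537 and 469 CPM in NK cells, and 233 and 282 CPM in macrophages. Its part of Rpl22 plus Rpl22l1 UMIs was 26.8% in IL4 and 27.1% in control T cells and 26.4% and 24.8% in NK cells. In type 1 DC it was 15.3% in IL4 and 14.2% in control. The level of Rpl22 was 1516 and 1508 CPM in type 1 DC and 1473 and 1666 CPM in T cells. Whether Rpl22 holds down Rpl22l1 in these cells was not tested. Rpl7l1, a paralog of Rpl7 (1426 CPM in IL4 and 1429 CPM in control), stayed between 2.11% and 4.52% of its pair in the 8 types.

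**Figure D5:**
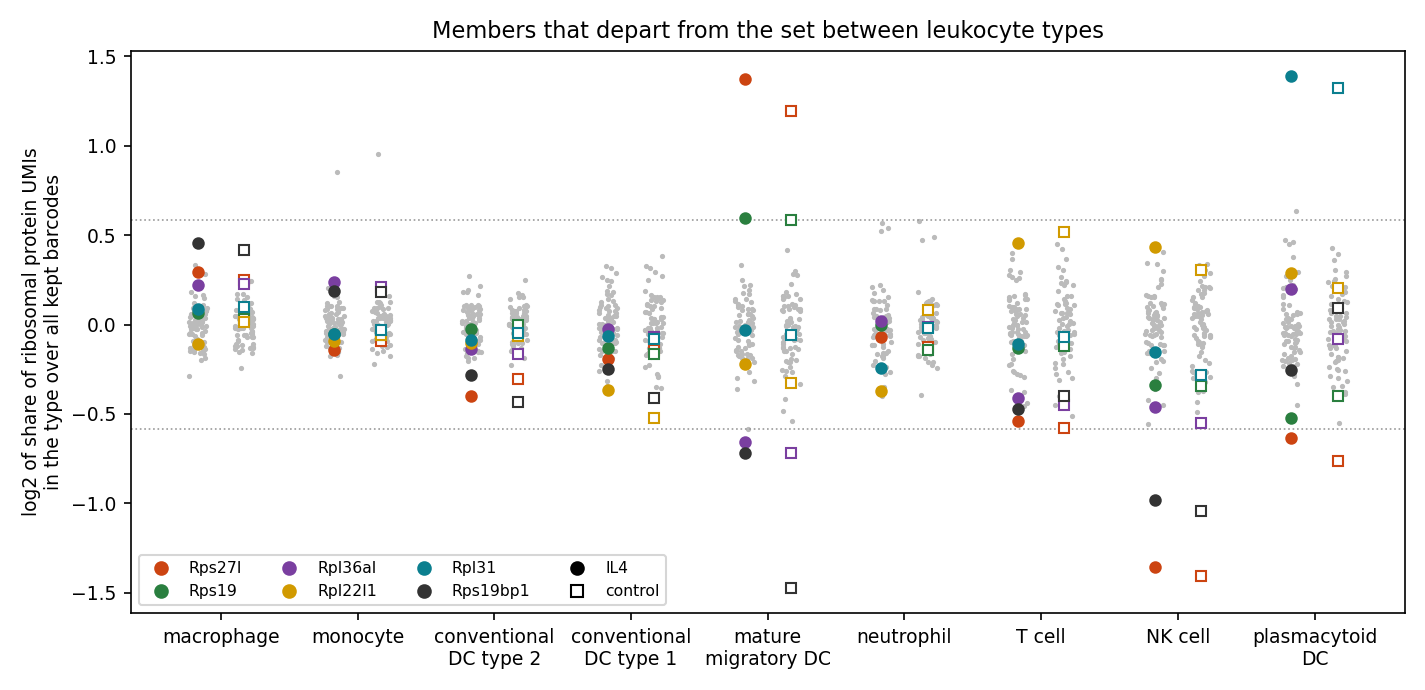
Log2 of each member's share of ribosomal protein UMIs in a type over its share in all kept barcodes, IL4 (filled circles) left of control (open squares) in each type. Grey points are the other members with at least 50 UMIs and dotted lines mark 1.5-fold. Rps27l lies at 1.37 and 1.20 in mature migratory DC and at -1.36 and -1.41 in NK cells, and Rpl31 at 1.39 and 1.32 in plasmacytoid DC.

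Plasmacytoid DC had 112 IL4 but 39 control barcodes and are under the minimum for a described type. Rpl31, a large-subunit protein near the exit tunnel, is named there after its values were seen. It had 1870 CPM in IL4 (Poisson interval 1799 to 1943) and 1738 CPM in control (1626 to 1855), where the 8 described types reached at most 923 CPM in IL4 and 926 CPM in control, both in T cells. The median barcode gave Rpl31 1.44% of ribosomal protein UMIs in IL4 (quartiles 0.973 to 1.707) and 1.24% in control (0.836 to 1.648). In the described types medians ran from 0.368% to 0.494% in IL4 and from 0.346% to 0.468% in control. The lower quartile in plasmacytoid DC thus lay above the median of every described type in both libraries. Rps27l departed there as well, at -0.63 in IL4 and -0.76 in control on the log2 scale. The share of all genes that depart by this rule was not computed for plasmacytoid DC. Between the libraries Rps27rt passed 1.5-fold there, with 46.6 CPM in IL4 (65 UMIs) and 23.2 CPM in control (12 UMIs). Of all genes 9.32% were higher and 6.92% lower in IL4 plasmacytoid DC.

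Other genes of translation were read beside the members. Fau had 3519 CPM in IL4 and 3510 CPM in control, and Rack1, whose protein binds the small subunit, 1440 and 1456 CPM. Among 17 elongation factor and other TOP genes, 0 passed 1.5-fold in macrophages, monocytes, T cells or NK cells, with medians of -0.13, -0.04, -0.11 and 0.13. Ribosome biogenesis genes had a median of -0.20 in macrophages (25 tested, 1 lower) and of -0.24 in T cells (25 tested, 0 past 1.5-fold). The 1 that passed in macrophages was Dkc1, the pseudouridine synthase dyskerin, with 10.4 CPM in IL4 and 16.3 CPM in control. Host genes of snoRNAs, several of which carry TOP starts, had medians of 0.24 in macrophages and 0.22 in NK cells, with 0 of 8 past 1.5-fold in either. Snhg1 among them had 152 CPM in IL4 and 111 CPM in control macrophages and 219 and 151 CPM in NK cells. Mitochondrial ribosomal proteins had a median of -0.14 in macrophages (78 tested, 0 past 1.5-fold) and of 0.06 in NK cells (75 tested, 1 higher and 1 lower). For comparison, proteasome subunits had medians of -0.09 in macrophages and 0.06 in NK cells, respiratory chain subunits -0.13 and 0.02, and the genes of growth control -0.06 and -0.04. Over the 8 types, 37 of 2025 tests of the genes on these lists passed 1.5-fold, 21 of them among the 180 in neutrophils. There 6 of 33 proteasome genes and 7 of 71 respiratory chain genes were lower and none higher, with medians of -0.27 and -0.20, where 9.13% of all genes were lower. The respiratory chain count is close to that share. With at least 200 UMIs per gene, 11 tests over the 8 types passed in place of 37.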

How the data were processed

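The values are UMI counts, not normalized, as the authors deposited them. The submitters' processing notes name Cell Ranger 7.2.0 and the mm10 build, and neither annotation release nor read chemistry is given in the sources used here. Kept barcodes had 500 UMIs or more, 250 genes or more and no more than 10% of UMIs in mitochondrial genes. A barcode joined a type on distinct markers detected: at least 4 of 6 for T cells, 3 of 6 for NK cells, 3 of 7 for B cells, 4 of 7 for neutrophils, 3 of 6 for plasmacytoid DC, 3 of 6 for type 1 DC, 5 of 8 for mature DC, and 3 of 5 including Cd209a and no other DC gate for type 2 DC. Macrophages had at least 10 C1qa, C1qb and C1qc UMIs per 10000, and monocytes at least 4 of 8 markers, under 5 such UMIs and no other gate. Such gates favour deep barcodes. The thresholds were set after seeing the data, and the type 2 DC gate was revised once. Barcodes in more than 1 gate (702 IL4, 413 control) or in none (3150 and 1996) were set aside; no doublet caller was run, so doublets remain. B cells (34 and 69 barcodes) were not described.

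UMIs were summed per type and library. Ratios are log2 of IL4 over control CPM, each with 1 added. Shares have exact binomial and CPM exact Poisson intervals at 95%, which cover counting error only. A count of 0 barcodes allows up to 3 barcodes of the total. With 1 library per group there was no test. The ratio code was tested on simulated data. Members and lists were chosen with earlier results of these data known. Named members are the 5 highest and lowest, those that departed 1.5-fold, the paralog pairs, the P-stalk genes and Rpsa, and those chosen after their values were seen, which are named as such or are Rpl4, Rps28, Rps29, Rpl9, Rpl27 and Rps19. Genes matched GENCODE M21 by gene ID, and promoter windows came from RefSeq on GRCm38.p6, the mm10 build. Python 3.11.15, numpy 2.4.6, scipy 1.17.1, pandas 2.3.3 and matplotlib 3.10.9 were used. Alternatives are in the closing section.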

Additional observations from a re-analysis of the deposited data

Results flagged for a closer look

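The share of UMIs in ribosomal protein genes differed by -0.727 percentage points (IL4 minus control) in macrophages and by -0.924 points in T cells, but by 1.89 points in NK cells. These opposite directions are flagged as a difference between types under the same contrast. The difference was not tested, since each group is 1 library.

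Signal was also read in symbols with -ps that the member rule leaves out. Rpl10-ps3 had 10268 UMIs in IL4 and 5783 in control (77.3 and 60.6 CPM), Rpl9-ps6 had 6233 and 3474 UMIs (46.9 and 36.4 CPM), and Rpl36a-ps1 had 887 and 684 UMIs (6.67 and 7.17 CPM). All windows of Rpl10, Rpl9 and Rpl36a are shared with transcripts of other genes.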

How the results depend on the processing

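No paired analysis was possible because each group is 1 library. Over all kept barcodes the share was 0.202 points higher in IL4. This was 0.192 with a mitochondrial limit of 5%, 0.227 with at least 2000 UMIs, 0.246 in barcodes with Xist alone, 0.674 in those with Y-linked transcripts alone, and 0.162 without mitochondrial UMIs. With each barcode counted alike, shallow or deep, it reversed to -0.018. The count of members past 1.5-fold was 1. With Xist alone it was 2, with Y-linked transcripts alone 11 (all 11 in neutrophils, on 16 IL4 and 73 control barcodes), and 0 with each barcode counted alike or a pseudocount of 10 CPM. Departures from the set median, 0 in the described types, were 1 with at least 2000 UMIs (Rpl7l1 in neutrophils), 1 under the stricter gate (Rps19bp1 in NK cells) and 4 with Y-linked transcripts alone. Departures between types, 6 in all, were 13 with each barcode counted alike and 3 with at least 200 UMIs per member. Genes of the other lists past 1.5-fold numbered 37 of 2025 tests (21 in neutrophils), against 57 with Xist alone, 101 with Y-linked transcripts alone, 12 with a pseudocount of 10 CPM and 11 with at least 200 UMIs. The median member ratio in neutrophils (0.07) reversed to -0.0031 with each barcode counted alike, and was 0.34 with Xist alone and 0.27 with Y-linked transcripts alone. The neutrophil share difference, 0.42 points, was 2.74 and 1.66 in those sets. The mature DC share difference (0.021 points) was -0.61 with Xist alone, 1.68 with Y-linked transcripts alone and -0.24 with each barcode counted alike, and the mature DC median ratio (-0.01) was 0.05 under the stricter gate and 0.15 with Y-linked transcripts alone. Unless stated, the cause was not tested. The alternatives for departures between types and for other lists were chosen after seeing the data. Of 141 values for single types or members, 6 changed sign, 5 of them in mature DC.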
